A study of Macaca mulatta with 2 samples.

Results

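The genes of MHC class II antigen presentation were followed in Sertoli cells of infant and pubertal rhesus macaques (Macaca mulatta). The set holds 8 genes: the chain genes HLA-DPA1, HLA-DPB1 and HLA-DRA, the peptide-loading genes HLA-DMA, HLA-DMB and HLA-DOA, the invariant chain gene CD74 and the regulator gene CIITA. Members were found in the scanner data as every probe, control spots left out, that carried one of these gene names, which gave 19 of the 41000 probes of the array. After a filter on dim probes, 7 of the 19 probes and 6 of the 8 genes were kept, among 19611 genes kept in all. Only 5 of the 19 probes were well above background in all 4 measured RNAs, so much of the set is described by its signals alone.

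Sertoli cells, which line the seminiferous tubule and support the germ cells, were grown as primary cultures and measured on 2 two-colour Agilent arrays. The infant donors were younger than 3 months. The pubertal donors, aged 18 to 22 months, were juveniles whose puberty was induced by gonadotropin-releasing hormone (GnRH): pulses of 2 min at 0.15 µg/min, 1 every 3 h, over 4 to 5 weeks. Cultures of both ages were exposed for 24 h to testosterone (100 nM) together with follicle-stimulating hormone (FSH, 5 ng/ml), so both groups share these hormones and no culture without them is analysed here. Each array set 1 pubertal against 1 infant culture from different animals, with the pubertal RNA in Cy5 on array 1 and in Cy3 on array 2. The labels call the arrays biological replicates, and all moderated errors and p-values rest on n = 2 array pairs. An error given with a scanner ratio is the scanner's own for 1 spot on 1 array. It holds no spread between cultures.

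Class II molecules are pairs of an alpha and a beta chain that show peptides from the endosomal route to CD4 T cells. The invariant chain CD74 blocks the groove of a new class II molecule, HLA-DM (HLA-DMA with HLA-DMB) exchanges the remnant of CD74 for peptide, and HLA-DO restrains HLA-DM. CIITA, a co-activator that works with the RFX complex on class II promoters, switches these genes on, constantly in macrophages, dendritic cells and B cells and in many other cells after interferon-gamma. In the testis, class II is best known from the macrophages between the tubules.

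The probes are 60 bases long, were designed on human transcripts and are placed on the human build hg17, so macaque RNA was read through human sequence. Shown here are probes without a stop codon in at least 1 of 3 reading frames, 1 for each of 5 members, because they show which human stretch a macaque transcript had to match to give a signal.
HLA-DPA1, probe A_24_P243528 at chr6:33145415-33145474, minus strand: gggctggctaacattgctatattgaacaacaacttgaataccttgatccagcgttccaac
HLA-DPB1, probe A_24_P166443 at chr6:33160959-33161565, plus strand: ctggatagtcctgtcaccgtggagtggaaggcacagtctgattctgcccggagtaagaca
HLA-DMA, probe A_24_P50245 at chr6:33025396-33025455, minus strand: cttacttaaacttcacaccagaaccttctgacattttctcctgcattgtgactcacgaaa
HLA-DOA, probe A_24_P354800 at chr6:33083114-33083173, minus strand: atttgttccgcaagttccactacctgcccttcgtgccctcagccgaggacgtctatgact
CD74, probe A_23_P70095 at chr5:149772415-149772474, minus strand: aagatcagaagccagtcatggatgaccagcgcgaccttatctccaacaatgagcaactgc
The HLA-DPB1 probe spans 607 bases of the genome with its 60 bases, so it bridges a gap in the gene. Of the 19 member probes 16 had an open frame, and the kept probes of HLA-DPA1 (A_23_P30913, chromosome 6, 33140826 to 33140885) and HLA-DMB (A_32_P351968, chromosome 6, 33010482 to 33010541) did not. The longest run of bases that a member probe shared with a probe of another gene was 16. Median GC content was 45.0% over the member probes and 41.7% over all 41000 probes. In the RefSeq table of macaque genes (T2T-MMU8v2.0) 7 of the 8 members were matched by symbol, synonym or their MAMU name, and HLA-DPB1 was not matched. How many bases of each probe differ from the macaque transcript was not examined.

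Member probes were well above background less often than the array as a whole. On array 1 this held for 13 of the 19 member probes in the pubertal RNA (68.4%, against 73.8% of all probes) and for 5 in the infant RNA (26.3% against 59.7%). On array 2 it held for 7 in the pubertal RNA (36.8% against 61.4%) and for 9 in the infant RNA (47.4% against 70.5%). The Cy5 channel was the more sensitive one on both arrays, for the member probes and for all probes. Of 15 Sertoli cell markers 13 were well above background in all 4 RNAs, among them SOX9, AMH, WT1 and GATA4. The FSH receptor gene FSHR lacked 1 of the 4 and SHBG 2. Of 6 Leydig cell markers 5 were well above background in all 4 RNAs. Summed signals lay between 170418 and 250486 for the Sertoli list and between 122359 and 193142 for the Leydig list. The ratios of the 2 arrays, both turned to pubertal over infant, had a Pearson correlation of -0.065 across the 19611 genes, which are not independent replicates.

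HLA-DPA1, the alpha chain of HLA-DP, was brighter in pubertal than in infant cells on both arrays, and far more so on array 1. The processed signals of its probe A_23_P30913, in scanner brightness units, were 826 in the pubertal and 55.9 in the infant culture of array 1, and 147 and 109 on array 2. The pubertal culture of array 1 thus stood apart from the other 3, which lay between 55.9 and 147. The scanner's log2 ratio, pubertal over infant, was 3.89 ± 0.42 (the scanner's own error) on array 1 and 0.43 ± 0.24 on array 2. That is 14.8-fold and 1.34-fold. The 2 log2 ratios differed by 3.46 ± 0.48, where the error joins the 2 scanner errors. After background correction with an offset of 50, which makes ratios of dim probes smaller, and loess, the log2 ratios were 1.85 and 0.30. Their mean was 1.08 ± 0.43 (moderated SE, n = 2 array pairs; limma unadjusted p = 0.054, adjusted p = 1.00).

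The probe of HLA-DPA1 shown above had the same order of signals, at 95.1 and 11.2 on array 1 and 20.3 and 17.1 on array 2. It was well above background only in the pubertal culture of array 1 and was left out by the filter. Its loess ratios were 0.67 on array 1 and -0.048 on array 2. Neither RNA was well above background on array 2, so no fold is given. Where a group is above background on 1 array alone, fewer cells of a type and less RNA per cell cannot be told apart, here as in all bulk values below.

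The macrophage scavenger receptor gene CD163 was also highest in the pubertal culture of array 1. Its signals were 1345 and 104 on array 1 and 444 and 602 on array 2, and its log2 ratios were 2.44 and -0.36, opposite between the arrays where HLA-DPA1 was not. Of 21 macrophage and monocyte markers on the array, 16 were well above background in the pubertal and 9 in the infant culture of array 1, and 12 in each culture of array 2. The summed signal of these markers was 4292 and 2926 in the pubertal cultures and 1834 and 2316 in the infant ones. Without CD163 and MNDA, left out after their values were seen, the other 19 summed to 1847 and 2160 in the pubertal and 1504 and 1699 in the infant cultures, so these 2 genes carried most of the gap on array 1. The part of macrophages in the HLA-DPA1 values was not tested.

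HLA-DPB1, the beta chain that pairs with HLA-DPA1, was brighter in the pubertal culture of both arrays. Signals of its probe A_24_P166443 were 54.2 against 29.5 on array 1 and 79.2 against 39.3 on array 2. The infant value of array 1 was not well above background. The scanner's log2 ratios were 0.88 ± 0.48 and 1.01 ± 0.36, and the loess ratios were 0.27 and 0.30, on average 0.29 ± 0.24 (moderated SE; limma adjusted p = 1.00). With median centring over all spots in place of loess the sign on array 1 turned, to -0.15. That setting left the median of all kept genes at 0.63 on array 1 and -0.42 on array 2, so signs under it carry this shift; relative to it HLA-DPB1 was at -0.78 and 0.92 and HLA-DPA1 at 1.65 and 0.65. A further probe (A_23_P258769) was not well above background in any RNA, with signals between 6.66 and 34.3.

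HLA-DRA, the single alpha chain of all HLA-DR molecules, was barely measured. Its 1 probe (A_32_P87697, chromosome 6, 32520426 to 32520485) gave 32.5 in pubertal and 18.9 in infant cells on array 1, and 29.1 and 20.0 on array 2. Only the pubertal signal of array 1 was well above background. The loess ratios were 0.031 and 0.094, and no fold is given.

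**Figure D1:**
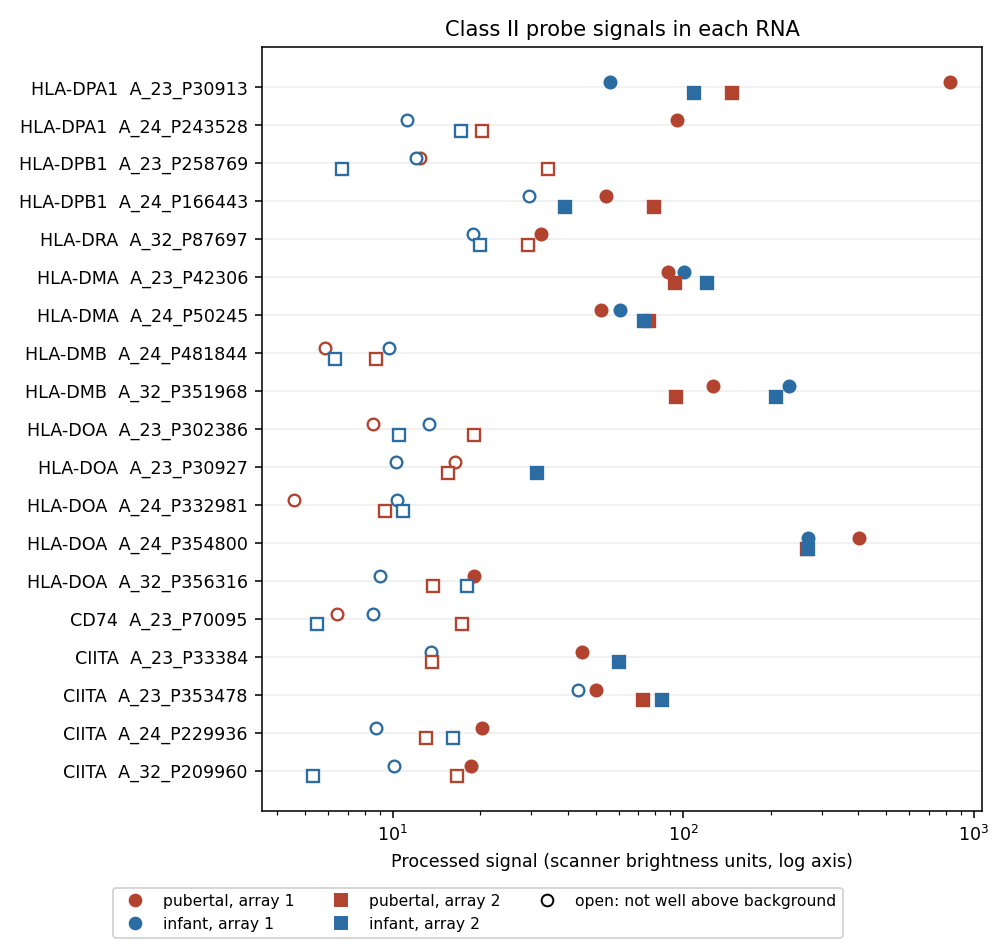
Processed signal (scanner brightness units, log axis) of each of the 19 member probes in the pubertal (red) and infant (blue) RNA of array 1 (circles) and array 2 (squares); open symbols were not well above background. The pubertal signal of HLA-DPA1 on array 1 (826) lies to the right of all others, the infant signals of HLA-DMB (231 and 208) lie to the right of its pubertal ones (126 and 94.3), and CD74 has open symbols only.

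HLA-DMB, the beta chain of HLA-DM, was brighter in the infant culture of both arrays. Signals of its probe A_32_P351968 were 126 in pubertal and 231 in infant cells on array 1 and 94.3 and 208 on array 2. The scanner's log2 ratios of pubertal over infant were -0.87 ± 0.24 and -1.14 ± 0.25, which is 1.83-fold and 2.20-fold higher in infant cells. The loess ratios were -0.42 and -0.47, on average -0.45 ± 0.24 (moderated SE; limma adjusted p = 1.00). A further probe (A_24_P481844) was not well above background in any RNA.

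HLA-DMA, the alpha chain that pairs with HLA-DMB, was close to equal between the ages. Its probe A_23_P42306 (chromosome 6, 33024544 to 33024603) gave 88.8 and 101 on array 1 and 93.3 and 120 on array 2 for pubertal and infant cells. Both infant signals were the higher ones, and the scanner's log2 ratios were -0.18 ± 0.25 and -0.37 ± 0.24. The loess ratios had opposite signs, at 0.014 and -0.22. The second probe, shown above, gave signals of 52.2 and 60.4 on array 1 and 76.4 and 73.1 on array 2, with loess ratios of 0.040 and -0.059.

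HLA-DOA, the alpha chain of HLA-DO, was higher in the pubertal culture of array 1 and level on array 2. Its probe A_24_P354800 gave 404 against 268 on array 1 and 267 against 268 on array 2, so 1 pubertal culture stood above the other 3. The scanner's log2 ratios were 0.59 ± 0.22 and -0.0045 ± 0.21, and the loess ratios 0.30 and 0.048. The other 4 HLA-DOA probes were well above background in at most 1 of the 4 RNAs.

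CD74, the invariant chain, was not well above background in any RNA. The signals of its 1 probe, shown above, were 6.42 and 8.52 on array 1 and 17.3 and 5.50 on array 2 for pubertal and infant cells. The 95th percentile of the 153 negative control spots was 5.50 and 11.3 in the pubertal and infant channels of array 1, and 9.45 and 6.26 in those of array 2. The pubertal signals were thus above that level of their channel and the infant ones below it. The infant signal of array 1 was a surrogate value set by the scanner, so its place below that level is not a measurement. No ratio is given for CD74.

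CIITA, the regulator, showed no difference beyond the error in its kept probe. This probe (A_23_P353478, chromosome 16, 10933540 to 10933599) gave 49.9 and 43.2 (not well above background) on array 1 and 72.8 and 84.3 on array 2, with scanner log2 ratios of 0.21 ± 0.42 and -0.21 ± 0.29. The loess ratios were -0.064 and -0.041, on average -0.052 ± 0.24 (moderated SE; limma adjusted p = 1.00). A second probe (A_23_P33384) gave 44.9 and 13.5 on array 1 and 13.7 and 60.0 on array 2. Its 2 high values were the Cy5 channels, pubertal on the first array and infant on the other. The Cy3 value of each array was not well above background, so no ratio is given for it. The other 2 CIITA probes were well above background only in the pubertal, Cy5-labelled RNA of array 1, at 20.2 and 18.6.

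**Figure D2:**
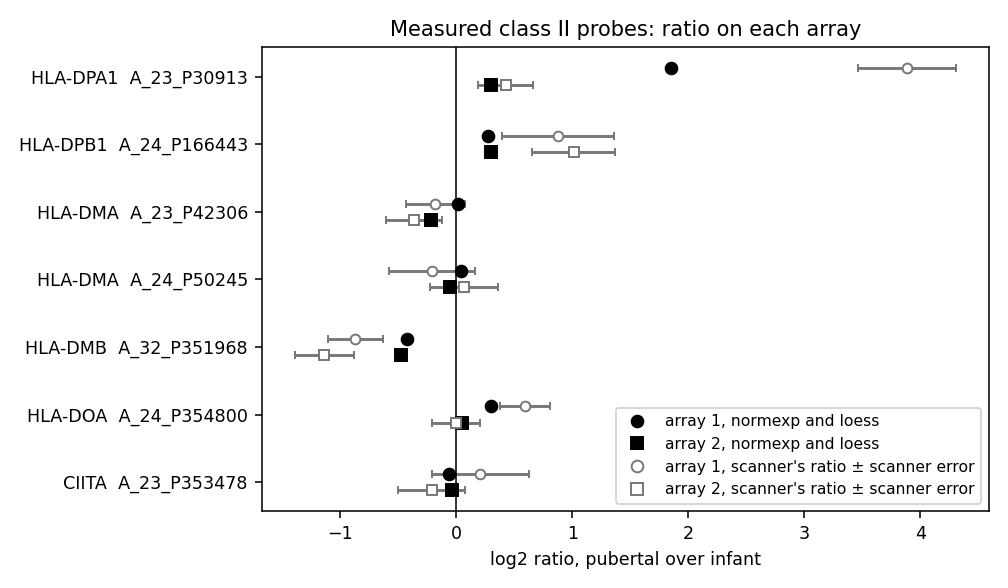
Log2 ratio of pubertal over infant for the 7 kept member probes on array 1 (circles) and array 2 (squares): filled symbols are after normexp and loess, open symbols are the scanner's ratio with bars for ± the scanner's error. HLA-DPA1 and HLA-DPB1 lie above 0 and HLA-DMB below 0 on both arrays in either version, and HLA-DPA1 is far apart between the arrays (1.85 and 0.30 filled, 3.89 and 0.43 open).

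Over the 6 kept members, 3 were higher in pubertal cells on both arrays (HLA-DPA1, HLA-DPB1 and HLA-DOA), against 23.5% of all 19611 genes. HLA-DPB1 passed the filter only through the pubertal RNA, where it was the higher, and with both RNAs required above background 2 members were higher on both and 1 lower. Lower on both as reported were HLA-DMB and CIITA, where the share of all genes was 21.9%, and HLA-DMA had opposite signs, as did 54.6% of all genes. After loess HLA-DMA was thus higher in Cy5 on both arrays, as were 31.5% of all genes, which did not hold for its scanner ratios; no kept member was higher in Cy3 on both after loess, as were 23.1%. With the scanner's signals 2 members were higher on both arrays, HLA-DPA1 and HLA-DPB1 (23.7% of all genes), and 2 lower, HLA-DMA and HLA-DMB (23.2%). HLA-DOA and CIITA had opposite signs with these signals. HLA-DPA1, HLA-DPB1 and HLA-DMB kept their signs on both arrays with loess, with an offset of 0 and with the scanner's signals; HLA-DPA1 and HLA-DMB also did with median centring, relative to all genes or not. The median log2 ratio of the 6 members was 0.14 on array 1 and 0.0038 on array 2, and that of all genes 0.048 and -0.028.

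No gene of the array passed limma's test (0 of 19611, 0%, at an adjusted p under 0.05), and 794 (4.05%) had an unadjusted p under 0.05, none of them a member. None of the members was at least 2-fold higher on both arrays after loess, as 67 genes (0.342%) were, or at least 2-fold lower, as 69 (0.352%) were. The authors' deposited table, which lists 4848 probes, holds 3 of the 19 member probes. The authors' deposited table gives log2 ratios of 3.88 and 0.43 for HLA-DPA1, of -0.89 and -1.14 for HLA-DMB, and of 1.04 on array 2 for HLA-DPB1, whose cell for array 1 is empty.

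**Figure D3:**
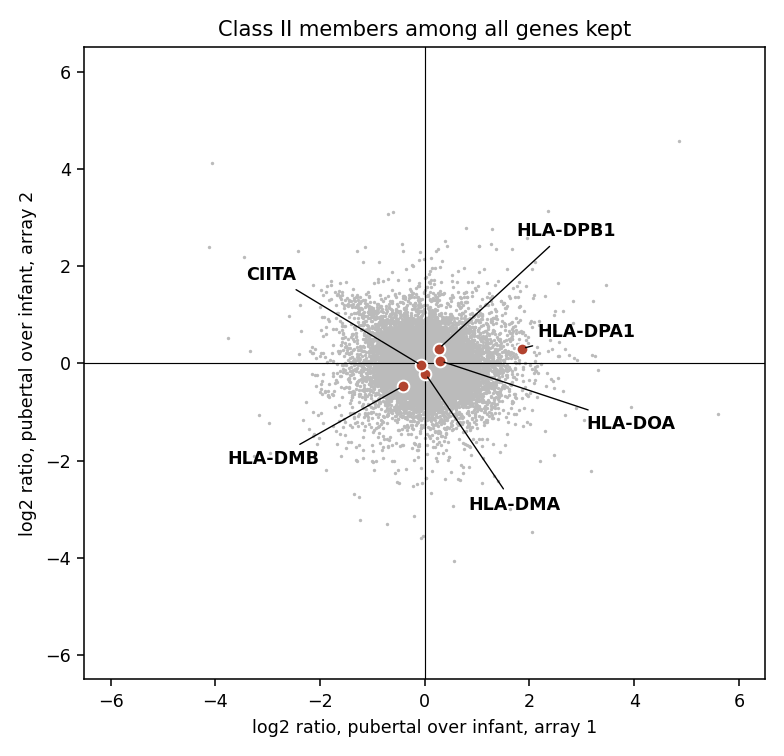
Log2 ratio of pubertal over infant on array 1 (x axis) and array 2 (y axis) for all 19611 genes kept (grey) and the 6 kept class II members (red, named). HLA-DPA1 lies to the right at 1.85 and 0.30, and the other 5 members lie within the cloud of all genes.

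The class II chains outside the set were read by further probes. Of 11 such genes 9 were kept, 2 higher on both arrays (HLA-DQA1 and HLA-DQB2), 1 lower (HLA-DPB2) and 6 with opposite signs. The shares over all 19611 genes were 23.5% higher, 21.9% lower and 54.6% opposite. None of the 9 passed limma's test. HLA-DQA1 had ratios of 0.40 and 0.17, HLA-DQB2 0.066 and 0.24 (0.53 and -0.29 with the scanner's signals, its pubertal signal on array 2 not well above background), and HLA-DPB2, a pseudogene, -0.15 and -0.026. HLA-DQB1 was at 0.0013 and -0.0062, and HLA-DOB, the beta partner of HLA-DOA, at -0.062 and 0.46 (0.28 and 1.12 with the scanner's signals). HLA-DQA2 and HLA-DRB6 were left out by the filter.

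The DRB probes, which read the beta partners of HLA-DRA, shared a pattern. After loess all 6 kept DRB probes were lower in the pubertal culture on array 1 and higher on array 2. HLA-DRB1 (10 spots) had signals of 1326 and 1860 on array 1 and 2898 and 2225 on array 2 for pubertal and infant cells, and loess ratios of -0.45 and 0.41. HLA-DRB4 had ratios of -0.52 and 0.16 and HLA-DRB5 of -0.63 and 0.86, and their probes share a run of 20 bases. A second HLA-DRB5 probe had -0.011 and 1.92, and the HLA-DRB3 probes -0.24 and 0.12, and -0.49 and 0.059. DRB genes are close copies of each other and vary between animals, so these probes are not independent readings. The pattern held for 4 of 4 DRB genes with loess, with an offset of 0 and with the scanner's signals, and for 1 of 4 with median centring. The median centring left the median of all kept genes at 0.63 on array 1 and -0.42 on array 2. Relative to that median all 4 DRB genes were lower on array 1 and higher on array 2. The second HLA-DRB3 probe (A_23_P145336) did not keep it with the scanner's signals, where its ratios were -0.94 and -0.070. The leukocyte gene PTPRC (CD45) had the same signs as the DRB probes, with ratios of -0.52 and 0.86. Its signals were 81.0 and 191 on array 1 and 193 and 36.0 on array 2. Among the 12 kept macrophage and monocyte markers PTPRC alone had these signs, and 4 had the reverse ones. After loess Cy3 was thus above Cy5 on each array for PTPRC and the kept DRB probes, and a part of dye in these values was not tested.

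Signs of the genes below are those after loess; of the 112 kept genes of these lists, 15 had another sign on an array with the scanner's signals and 57 with median centring, which carries the shift given above. Of the factors that act on class II promoters, all 9 listed genes were kept, 2 higher, 3 lower and 4 opposite. For this and every list below, the shares over all 19611 genes were 23.5% higher, 21.9% lower and 54.6% opposite. RFX5, a DNA-binding subunit of the RFX complex, had ratios of 0.56 and 0.096 (mean 0.33 ± 0.26), and RFXAP, its partner, 0.56 and -0.48. RFXANK, the third subunit, was at -0.17 and -0.36, and CREB1 at 0.14 and 0.47. Of the interferon-gamma arm 8 of 9 genes were kept, 0 higher, 2 lower and 6 opposite. IRF1, an early target of the pathway, was at -0.49 and -0.33 (mean -0.41 ± 0.24), and SOCS1, its feedback inhibitor, at -0.14 and -0.84. The IFNG gene itself was not well above background in any RNA.

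Of 11 genes of endosomal proteolysis and loading, all kept, 1 was higher, 4 lower and 6 opposite. CTSS, the protease that trims CD74 in antigen-presenting cells, was the 1 higher gene at 0.35 and 0.072 (mean 0.21 ± 0.25). IFI30, a thiol reductase of endosomes induced by interferon-gamma, was at -0.24 and -1.03 (mean -0.63 ± 0.30), and the endosomal proteases CTSB and LGMN had means of -0.37 ± 0.25 and -0.35 ± 0.24. MARCH1, a ligase that removes class II from the surface, was at 0.34 and 0.41, SPPL2A, which clears the last fragment of CD74, at -0.36 and -0.13, and MARCH8 at 0.088 and -0.57. None of the genes of these lists passed limma's test.

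CD74 is also a receptor of the cytokine MIF. MIF had ratios of 0.94 and 0.17 and its relative DDT 0.88 and 0.073, while CD44, the signalling partner of CD74, was at -0.95 and -0.83 (mean -0.89 ± 0.24, limma unadjusted p = 0.015, adjusted p = 1.00). CXCR4, another partner, was at 0.55 and -2.94, opposite between the arrays.

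Markers of cells that carry class II were present in part. Of the macrophage and monocyte markers 12 were kept, 6 higher (23.5% of all genes were), 1 lower and 5 opposite, with medians of 0.30 and 0.042. Of the 6 defining ones CD14, CD68, CSF1R and PTPRC were well above background in all 4 RNAs, ITGAM in 3, and AIF1 in the pubertal culture of array 1 alone. CD14 was at 0.17 and -0.026, CD68 at -0.34 and -0.074, CSF1R at 0.18 and 0.53, and ITGAM at 0.21 and -0.20. MNDA, a nuclear protein of myeloid cells, was at 1.81 on array 1 and 1.66 on array 2, where its infant signal (15.3) was not well above background, and it passed the filter only through the pubertal RNA. ITGB2 was at 0.31 and 0.36 and LAPTM5 at 0.40 and 0.051. Their infant signals were not well above background on array 1, so they too passed only through the pubertal RNA. MSR1, C1QA, C1QC, SPI1 and CD53 were not well above background in any RNA.

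Of 7 dendritic cell markers 3 were kept, and CCR7, a chemokine receptor, was the 1 higher on both arrays at 0.90 and 0.83. Of 8 B cell markers 5 were kept, and BANK1 was the 1 higher on both at 1.17 and 0.83. Of 9 T and NK cell markers 4 were kept, 2 higher on both and 2 opposite (CD3E and LCK). The higher ones were CD4 at 0.56 and 0.19 and CD8A, whose infant signal on array 1 was not well above background, at 0.088 and 0.012. Of 8 endothelial markers 5 were kept, 3 higher on both, with VWF at a mean of 0.85 ± 0.26 and CLDN5 at 0.63 ± 0.24. A further kept CLDN5 probe had only 0.075 and 0.094. Of 6 Leydig cell markers 5 were kept, 1 higher on both arrays, 1 lower and 3 opposite. CYP17A1 was at -2.12 and -1.45 and CYP11A1 at 0.68 and 0.27, while STAR, INSL3 and HSD3B2 had opposite signs. None passed limma's test after adjustment, and the part of any of these cell types in the class II values was not tested.

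**Figure D4:**
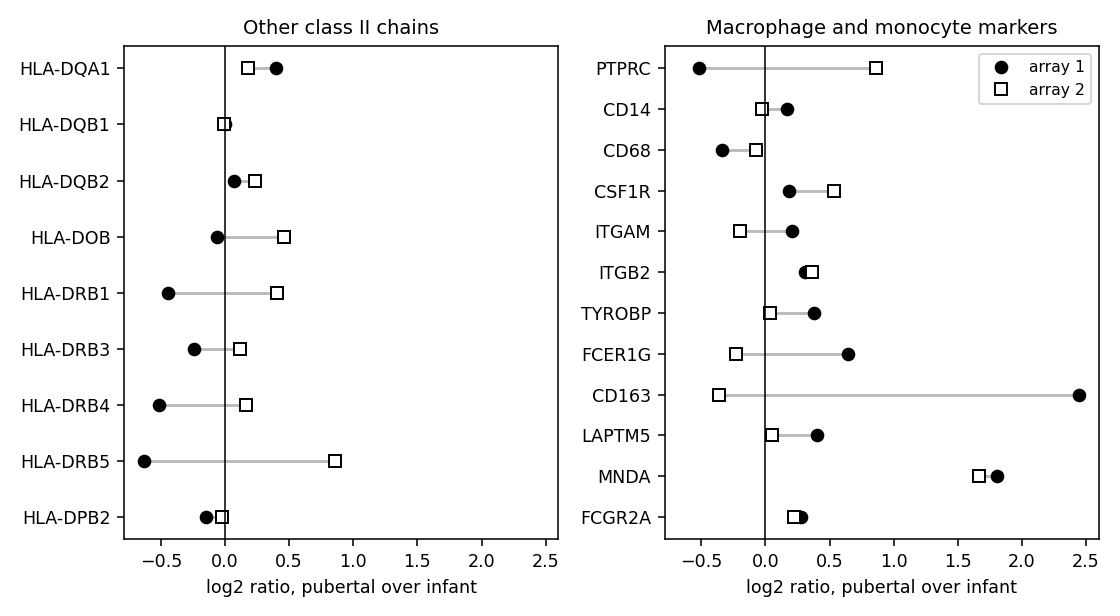
Log2 ratio of pubertal over infant on array 1 (filled circles) and array 2 (open squares) for the other class II chain genes (left) and the kept macrophage and monocyte markers (right), a line joining the values of a gene. The DRB genes lie below 0 on array 1 and above 0 on array 2, and CD163 lies at 2.44 on array 1 and at -0.36 on array 2.

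By distance between pairs of ratios, the 5 named genes nearest to HLA-DOA, the brightest kept member probe, were NIPA2, POU3F1, GZMB, HIST1H2BI and CYP2W1, all within 0.0091 on the log2 scale. Likeness over 2 arrays is common, since 1395 of 14207 named genes lay within 0.2 of HLA-DOA.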

How the data were processed

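Scanner files of 2 two-colour arrays (Agilent design 014850) were read, written by the software Feature Extraction, version 9.5.1.1 (named in the submitters' processing notes). The deposited files hold mean spot intensity and median background intensity per channel, not normalized, and processed intensity, background-subtracted and dye-normalized per the file headers, with a log10 ratio of Cy5 over Cy3. Flags in the deposited files are another unit. The authors' deposited table holds log2 ratios. Set against the scanner's ratios it had slopes of 1.006 and 1.003 in the pubertal over infant direction, with column medians of -0.37 and 0.12. Its normalization is not given in the sources used here.

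Intensities were corrected by normexp (offset 50) and loess in limma 3.58.1 (R 4.3.3), and the dye labels set each log ratio's direction, pubertal over infant. Control spots had weight 0, outlier spots were left out, saturated spots were kept, and the 43376 spots were averaged to 41000 probes. Kept were probes well above background in one RNA, pubertal or infant, on both arrays (15232 left out), and the brightest probe stood for a gene. lmFit and eBayes, two-sided, with Benjamini-Hochberg adjustment, had 1 residual and 3.83 prior degrees of freedom. The code of the fit was tried on simulated ratios with less spread than these arrays, so this gives no measure of its error rate here. Tables were made in Python 3.11.15. Probes left out by the filter are given by signals and flags, with loess ratios for HLA-DRA and the dimmer HLA-DPA1 probe. Members, lists and tests were chosen with earlier results of these data known. Of each list, up to 4 genes with the smallest unadjusted p were named, beside members, other class II chains, RFX genes, IRF1, CTSS, IFI30 and 6 macrophage markers, and some genes that this rule names are not reported here; FSHR, SHBG, SOX9, AMH, WT1 and GATA4, and genes cited only for their flags or for a shared pattern (CD163), were chosen after their values were seen. Alternatives covered background, normalization, filter, probe choice, prior, saturation, the authors' deposited table and each array alone.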

Additional observations from a re-analysis of the deposited data

How the results depend on the processing

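Genes past limma's adjusted threshold numbered 0 as reported and 1 with an offset of 0, with median centring and with an intensity trend in the prior, and that gene was no member. Members higher on both arrays numbered 3 as reported and 1 with median centring and 1 in the authors' deposited table, and 3 to 4 were higher on either array alone. Members lower on both numbered 2 as reported and 1 with median centring, 1 with both RNAs required above background and 1 in the authors' deposited table, and 2 to 3 on either array alone. HLA-DMA turned to 0.014 without replicate 2 and was at -0.22 without replicate 1. HLA-DMB had a mean of -1.01 in the authors' deposited table, against -0.45. The authors' deposited table lists 3 member probes and the stricter filter drops HLA-DPB1 and CIITA; otherwise the cause was not tested. Over the alternatives with both arrays the mean of HLA-DPA1 lay between 1.08 and 2.16 and that of HLA-DPB1 between 0.18 and 0.94, with a lowest limma adjusted p of 0.504 and 0.752. HLA-DPA1 had 1.85 on array 1 and 0.30 on array 2 alone. Probe brightness near background and 2 array pairs limit the precision. No paired analysis was possible because the study has 1 group of ratios, and each array is already a pair of 1 pubertal and 1 infant culture.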

Other observations

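Class I antigen presentation shows peptides of the cell's own proteins to CD8 T cells. All 15 listed genes on the array were kept and 14 were well above background in all 4 RNAs. In pubertal cells 8 were higher on both arrays (23.5% of all genes were), 2 lower and 5 opposite, and the median log2 ratios were 0.12 and 0.080. None passed limma's test. HLA-C had ratios of 0.92 and 0.12 (mean 0.52 ± 0.30, moderated SE, n = 2 array pairs), PSMB10, an immunoproteasome subunit, 0.51 and 0.29, and HLA-B 0.39 and 0.33. The further HLA-C probes had means of 0.79, 0.61 and 0.19, the last with opposite signs, at -0.47 and 0.86. HLA-G was at 0.78 and 0.055, and its further probes had means of 0.16 and -0.057. B2M, the light chain of class I molecules, was lower on both, at -0.36 and -0.30. Class I genes are close copies of each other, so their probes can read more than 1 of them. HLA-B, HLA-C and HLA-G each had a saturated channel. Each of the 8 genes higher on both arrays had opposite signs with median centring, with HLA-B at 1.69 and -0.58. That setting left the median of all kept genes at 0.63 on array 1 and -0.42 on array 2. With the scanner's signals these 8 genes kept their signs.

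Of 6 costimulation genes 5 were kept, 2 higher on both arrays, 1 lower and 2 opposite. CD274, the ligand of the T cell brake PD-1, was at 0.55 and 0.49 (mean 0.52 ± 0.24), CD40 at -0.47 and -0.13, and ICOSLG at 0.33 and 0.013. None passed limma's test (adjusted p = 1.00 each).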
